A study of Mus musculus with 9 samples.

Results

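The genes described here encode the nuclear subunits of respiratory complexes II to V, with cytochrome c and 3 related genes of like symbol, in beige adipocytes of F1 hybrid, 129 and B6 mice. They were chosen by symbol alone (Sdha to Sdhd, symbols beginning with Uqcr or Atp5, Cyc1, Cycs, and Cox4 to Cox8), a rule that reads no expression value, although the set was taken up with earlier results of these data known. The rule gave 49 of the 24013 gene symbols, with 4 in complex II, 10 in complex III with cytochrome c, 18 in complex IV and 17 in complex V. The 3 related genes are counted under complex IV (Cox7a2l) and complex V (Atp5s and Atp5sl). Complex I was no part of the rule, and the subunits encoded by mitochondrial DNA are not analysed here. Poly(A) RNA was sequenced on day 7 from stromal vascular cells of inguinal fat, a subcutaneous depot whose precursors can form UCP1-expressing beige adipocytes, after differentiation in culture. Each group had 3 libraries: F1 offspring of the parental strains, 129X1/SvJ (129) and C57BL6/J (B6, as the labels spell it). All groups had the same regimen: 48 hours in serum (10% FBS) with rosiglitazone at 1 µM, insulin at 850 nM, T3 at 1 nM, dexamethasone at 1 µM, indomethacin at 125 nM and isobutylmethylxanthine at 0.5 mM, and then in serum with rosiglitazone, insulin and T3 only. The labels name no adrenergic stimulus. The mother's strain in the F1 cross, the sex and age of the mice, and whether libraries came from separate animals are not stated. P-values therefore measure the spread between these libraries, which may be technical.

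Respiratory complexes pass electrons from nutrients to oxygen in the inner mitochondrial membrane and use the released energy to pump protons. Complex II feeds in electrons from succinate, complex III hands them to cytochrome c, complex IV (cytochrome c oxidase) passes them to oxygen, and complex V (ATP synthase) lets protons return and makes ATP. In brown and beige fat UCP1 also lets protons return, so that electron transport gives heat, and rodent brown fat is known for abundant oxidase but little ATP synthase, a feature linked to low expression of the subunit c gene Atp5g1. Several oxidase subunits exist as a ubiquitous form and a form of heart, muscle and brown fat. Cox7a1 and Cox8b are such tissue forms and serve as brown fat markers, while Cox7a2 and Cox8a are their ubiquitous counterparts.

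Depth was 39686986 to 53410947 assigned reads in F1, 23710908 to 28473083 in 129 and 19130022 to 26931438 in B6, so every F1 library was deeper than every parental one. Levels are given as RPKM, reads per kilobase of exon scaled to 1000000 assigned reads. The 49 genes took 2.34% to 2.54% of the reads in F1, 2.01% to 2.19% in 129 and 2.25% to 2.55% in B6. Adipocyte markers (8 genes, among them Adipoq, Fabp4 and Plin1) summed to 35934 to 38342 RPKM in F1, 31972 to 34484 in 129 and 28199 to 32235 in B6. Most of each sum was Fabp4, which averaged 31345 RPKM in F1, 26915 in 129 and 23545 in B6, while Adipoq averaged 1349.9 RPKM in F1, 1289 in 129 and 1508 in B6, another order. Ucp1 averaged 52.4 ± 1.79, 62.6 ± 1.96 and 9.88 ± 0.752 RPKM (SD, n = 3 each) in F1, 129 and B6, so this marker of the labelled cell type was present in every group. Other thermogenic markers had other orders. Means in F1, 129 and B6 were 20.2, 12.7 and 6.93 RPKM for Cidea and 7.27, 5.40 and 8.64 RPKM for Ppargc1a. Prdm16 (1.30, 1.03 and 1.54 RPKM) and Dio2 (2.02, 2.46 and 2.26 RPKM) were low. Of these 5 markers, 2 were higher (Ucp1 and Cidea) and 2 lower (Ppargc1a and Prdm16) in 129 than in B6 (limma, adjusted p under 0.05). Markers of adipocyte progenitors (6 genes) summed to 308 to 388, 441 to 461 and 422 to 568 RPKM in F1, 129 and B6, and those of smooth muscle (5 genes) to 99.9 to 106, 128 to 137 and 129 to 144 RPKM. Most of each progenitor sum was Ly6a, with means of 296, 340 and 411 RPKM in these groups. Pdgfra (41.7, 81.2 and 43.8 RPKM) and Cd34 (11.5, 23.6 and 16.8 RPKM) were highest in 129. Of 5 tested progenitor markers, 2 were higher and 1 lower in 129 than in B6 (limma, adjusted p under 0.05). Of the 5 of smooth muscle, 0 were higher and 3 lower (Myh11, Cnn1 and Actg2). Among all genes tested, 15.9% were higher and 21.7% lower. Macrophage markers (7 genes) summed to 35.9 to 52.7, 19.4 to 43.9 and 41.1 to 51.8 RPKM in these groups, and endothelial markers (4 genes) to 3.57 to 3.70, 2.53 to 2.96 and 4.79 to 5.51 RPKM. Progenitor and smooth muscle sums were lowest in F1. Against B6, 3 of 5 progenitor and 5 of 5 smooth muscle markers were lower in F1 (limma, adjusted p under 0.05). Against 129, 3 and 2 were lower, and against mid-parent, as defined below, 4 and 5. In each comparison 0 were higher. Of all genes tested, 20.2%, 15.7% and 14.8% were lower in F1 and 11.0%, 12.0% and 8.35% higher, in that order. Endothelial sums were lowest in 129 and highest in B6. The part of these cell types in the differences given here was not tested. In such bulk RNA, fewer adipocytes and less RNA per adipocyte cannot be told apart.

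The respiratory genes were among the abundant transcripts of these cells. Across libraries the median level per gene was 327 to 353 RPKM for complex II in F1, 279 to 303 in 129 and 309 to 363 in B6. For complex III with cytochrome c the medians were 462 to 520 RPKM in F1, 383 to 420 in 129 and 454 to 495 in B6, and the 3 groups stood in the same relation for complex V, with 441 to 488, 369 to 435 and 438 to 525 RPKM. In each of these complexes the 129 medians lay below those of F1 and B6, whose ranges overlapped. Complex IV had the same relation, with 351 to 390 RPKM in F1, 291 to 321 in 129 and 355 to 407 in B6. Its most abundant member was Cox4i1, at 1349 to 1498 RPKM in F1. At its lower end the testis forms Cox7b2 and Cox8c were listed at 0 in all 9 libraries, as was the oxidase assembly gene Sco2, which most tissues use, so a listed 0 need not mean that the RNA was missing. The other 47 genes passed the filter on low values, at least 1 RPKM in at least 3 libraries, and were tested. The highest level belonged to Atp5b, the catalytic beta subunit of ATP synthase, with a mean of 2445 RPKM in F1, 2033 in 129 and 2365 in B6. 

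Transcripts of all 4 complexes tended to stand lower in 129 than in B6, with Cox8b at 0.543, Cox7a2 at 0.695 and Sdha at 0.763 of the B6 level, as ratios of RPKM + 1. Of the 47 genes, 23 were lower and 0 higher in 129 than in B6 (limma, adjusted p under 0.05), a share of 48.9% lower against 21.7% of all 11542 genes tested. Their median log2 fold change was -0.19, against -0.03 over all genes tested, and 43 of the 47 values were negative. The 129 libraries lay below all B6 libraries for 27 of the 47 genes (57.4%, against 29.0% of all genes) and above them for 0 (against 20.8%). By complex, 3 of 4 genes of complex II fell, 6 of 10 of complex III with cytochrome c, 4 of 16 of complex IV and 10 of 17 of complex V, with medians of -0.24, -0.23, -0.15 and -0.19. The count for all 47 was 13 without B6 replicate 1, 13 without B6 replicate 3, 13 without 129 replicate 1 and 12 without 129 replicate 2. Without B6 replicate 2, 31 were lower and 1, Cox6a2, was higher. At an unadjusted p under 0.05, 31 were lower and 0 higher, and limma-voom on recovered reads gave 29 lower and 0 higher. The count was 15 with no filter on low values, which tests more genes, and 15 after median-of-ratios rescaling. In every fit run, 12 of the 23 passed, among them Sdha, Uqcrc1, Cycs, Cox7a2, Cox8b and Atp5g1.

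In F1 most of these transcripts stood above 129, and 3 oxidase isoform genes, Cox7a1, Cox6a2 and Cox4i2, were 1.66-fold to 1.70-fold above the mid-parent level of RPKM + 1. F1 was set against each parent and against the mid-parent value, which averages the log2 values of 129 and B6. These comparisons share the F1 libraries, and each parent's libraries also enter 129 minus B6. Against 129, 27 of the 47 genes were higher in F1 and 0 lower (57.4% higher, against 12.0% of all genes tested). At an unadjusted p under 0.05, 31 were higher and 0 lower, and limma-voom gave 28 and 0. The F1 libraries lay above all 129 libraries for 34 genes (72.3%, against 19.8% of all genes) and below them for 0 (against 24.7%). Against B6, 6 were higher and 2 lower, which is 12.8% and 4.26%, against 11.0% and 20.2% of all genes, and the libraries did not overlap for 8 above and 2 below (17.0% and 4.26%, against 16.0% and 28.2%). The 6 that rose were Uqcrq, Cox4i2, Cox6a1, Cox6a2, Cox7a1 and Cox8b, and the 2 that fell were Atp5g1 and Atp5j, a stalk subunit named after its values were seen. The fall of Atp5j, 0.18 (limma adjusted p = 0.0442), passed in 9 of 18 fits and was lost after median-of-ratios rescaling, with no filter on low values, with only the 6 libraries compared, and without F1 replicates 2 or 3, 129 replicates 1 or 2 or B6 replicates 1 or 3 (adjusted p of 0.0538 to 0.137). In every fit run, 3 of the 6 rises passed, Cox4i2, Cox6a2 and Cox7a1, and 0 of the 2 falls. The median log2 fold changes over the 47 genes were 0.22 for F1 minus 129 and -0.00 for F1 minus B6, against -0.01 and -0.04 over all genes, and the second was 0.04 after median-of-ratios rescaling and -0.04 without B6 replicate 2, with 10 and 32 of the 47 values negative. Against 129 the count was 13 without 129 replicate 1, 14 without 129 replicate 2 and 16 without F1 replicate 1. Against B6 the balance of directions turned: 5 were higher and 6 lower without B6 replicate 2, and 3 were higher and 3 lower without F1 replicate 1. Rises alone passed without B6 replicate 1 (3), B6 replicate 3 (4), F1 replicate 2 (6) or F1 replicate 3 (5), and 3 rises and 1 fall passed with no filter on low values. Array weights gave 6 higher and 5 lower, limma-voom 6 and 3, and an unadjusted p under 0.05 also 6 and 3.

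Against the mid-parent value 12 genes rose and 0 fell (25.5% higher, against 8.35% of all genes tested), with a median log2 fold change of 0.11 against -0.03. At an unadjusted p under 0.05, 18 were higher and 0 lower, and limma-voom gave 14 and 0. Complex IV held 8 of the 12, out of 16 tested, while complex II held 1 of 4, complex III with cytochrome c 2 of 10 and complex V 1 of 17. The 8 of complex IV include Cox7a2l and the 1 of complex V is Atp5sl, both treated here as related genes and not as subunit genes. The complex IV median was 0.19 and that of complex V was 0.06. All 3 F1 libraries lay above all 6 parental libraries for 8 of the 47 genes (17.0%, against 5.72% of all genes) and below them for 0 (against 9.70%). These 8 were Uqcrq of complex III and 7 genes of complex IV, Cox4i2, Cox5b, Cox6a1, Cox6a2, Cox7a1, Cox7b and Cox8b; Cox5b and Cox7b were named after their values were seen.

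**Figure D1:**
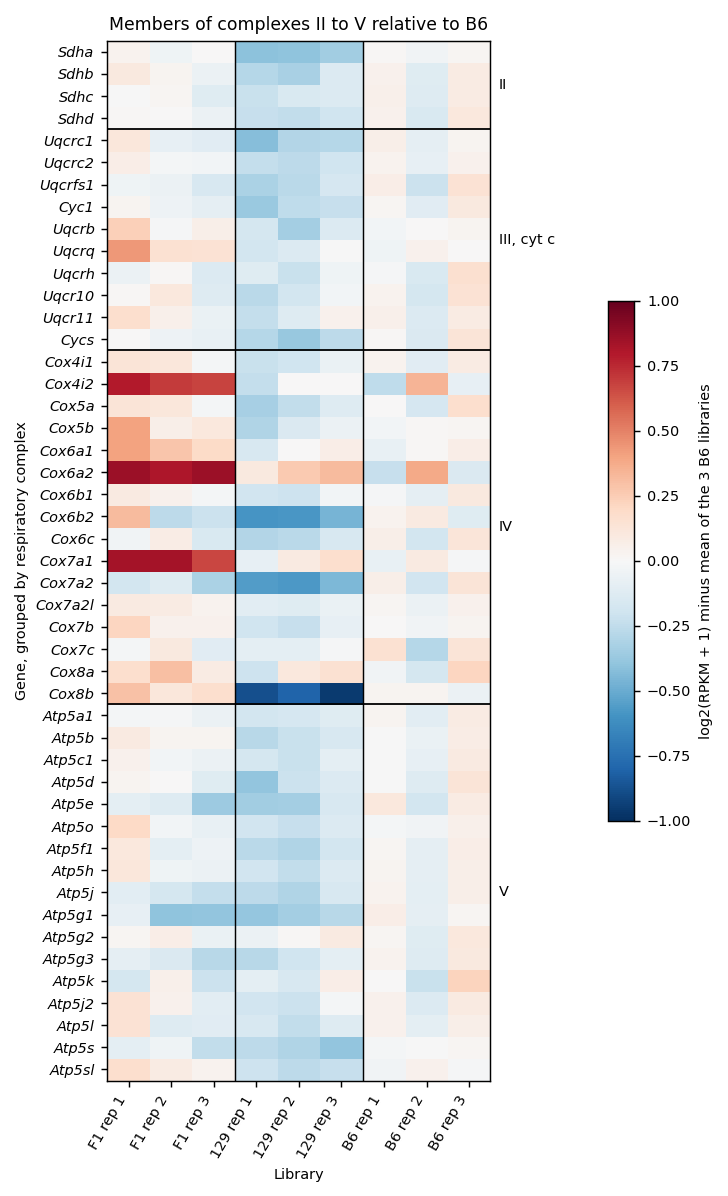
Each row is 1 of the 47 tested genes, ordered from complex II at the top to complex V at the bottom, and each column is 1 library of F1, 129 or B6. Colour is log2(RPKM + 1) minus the mean of the 3 B6 libraries of that gene. The 129 columns are blue in most rows, with Cox8b the darkest, and the F1 columns stand out in red at Cox4i2, Cox6a2 and Cox7a1.

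**Figure D2:**
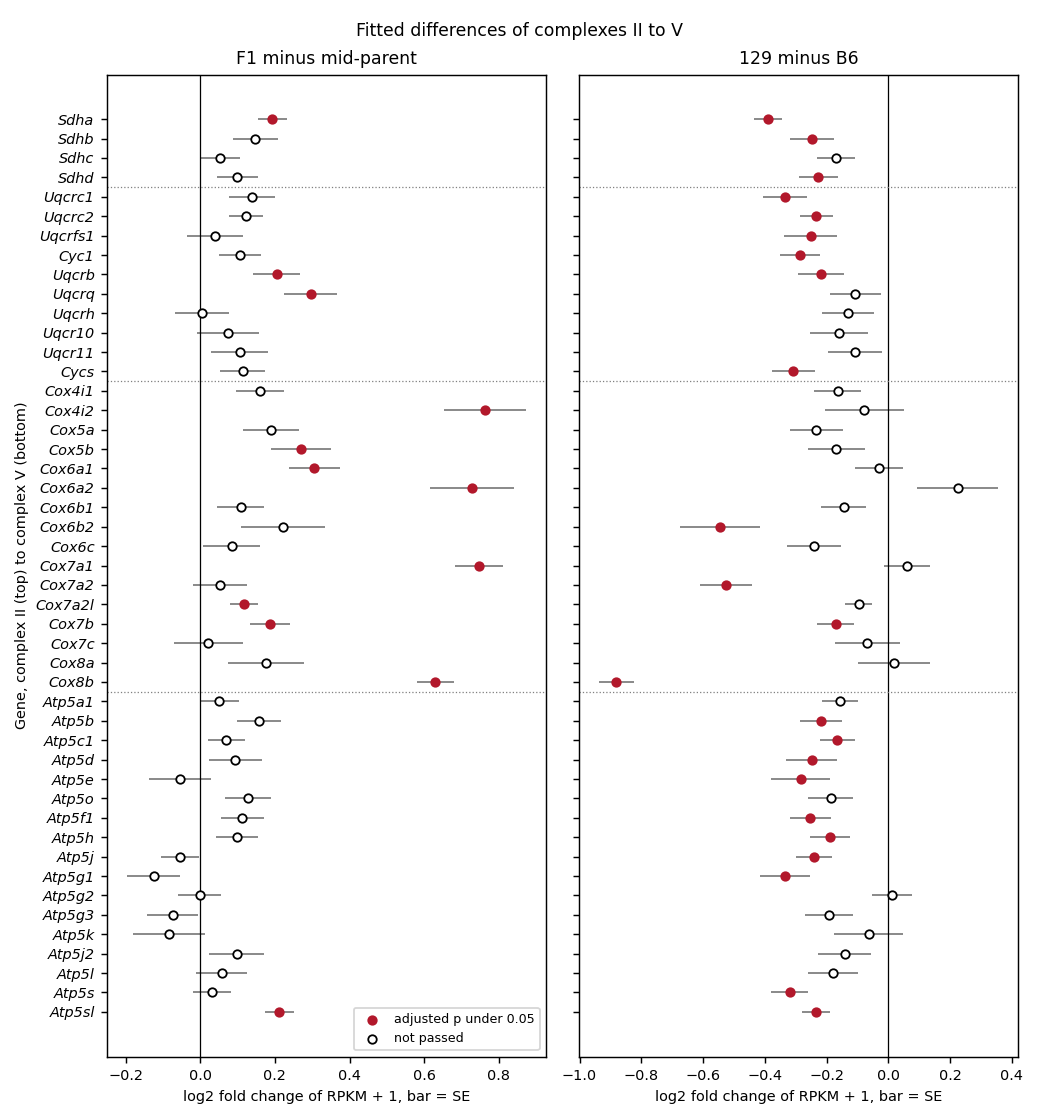
Fitted log2 fold changes of RPKM + 1 (horizontal axis, log2 scale) are shown for each gene (vertical axis), for F1 minus mid-parent on the left and 129 minus B6 on the right. Points are limma estimates, bars are 1 standard error, and filled points have an adjusted p under 0.05. On the right 23 genes are filled and all lie left of 0, and on the left 12 are filled and all lie right of 0.

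In complex II, the enzyme shared by the citric acid cycle and the respiratory chain, F1 and B6 lay close together and 129 lay lower. Sdha, the flavoprotein that oxidises succinate (mm9 chromosome 13, 74459703 to 74487688), had 471, 446 and 459 RPKM in F1, 345, 347 and 360 RPKM in 129 and 463, 449 and 467 RPKM in B6. The 129 libraries were below all others, and the F1 and B6 ranges overlapped. Its log2 fold change was -0.39 (SE 0.05, limma adjusted p = 6.71e-05) for 129 minus B6 and 0.39 (SE 0.05, adjusted p = 0.000165) for F1 minus 129. F1 exceeded the mid-parent value by 0.19 (SE 0.04, adjusted p = 0.00602). Sdhb, the iron-sulfur subunit, had 359, 343 and 323 RPKM in F1, 275, 268 and 305 RPKM in 129 and 345, 308 and 355 RPKM in B6. Again 129 lay lowest, by a narrow margin at replicate 3. Sdhb fell in 129 against B6 by 0.25 on the log2 scale (SE 0.07, limma adjusted p = 0.0184), a call that was lost without B6 replicate 1 (adjusted p = 0.0643), B6 replicate 3 (0.0696), 129 replicate 1 (0.0647) or 129 replicate 2 (0.0746). The membrane anchor Sdhd also fell (-0.23), a call lost without B6 replicate 1 (adjusted p = 0.0653), B6 replicate 3 (0.0673), 129 replicate 1 (0.0514) or 129 replicate 2 (0.0576). The other anchor, Sdhc, had -0.17 and did not pass (limma adjusted p = 0.0554), but passed as a fall without B6 replicate 2 (0.00617), with limma-voom (0.0382) and with array weights (0.00653).

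Among the 10 genes of complex III and cytochrome c, 6 fell in 129 against B6 and 2 exceeded the mid-parent value in F1. Uqcrc1, a core protein, had 445, 389 and 381 RPKM in F1, 306, 336 and 339 RPKM in 129 and 429, 388 and 421 RPKM in B6. Cycs, cytochrome c itself, had 424, 410 and 402 RPKM in F1, 347, 327 and 354 RPKM in 129 and 428, 383 and 464 RPKM in B6. For both genes all 129 libraries were below all F1 and all B6 libraries, and F1 overlapped B6. The log2 fold changes for 129 minus B6 were -0.33 (SE 0.07, limma adjusted p = 0.0037) for Uqcrc1 and -0.31 (SE 0.07, adjusted p = 0.00503) for Cycs. The other falls were those of Uqcrc2, the second core protein, Uqcrfs1, the Rieske iron-sulfur protein, Cyc1, cytochrome c1, and Uqcrb, a small subunit, at -0.22 to -0.29. Those of Uqcrc2 and Cyc1 passed in every fit run. That of Uqcrfs1 passed in 8 of 18 fits (limma adjusted p of 0.0502 to 0.145 in the others) and that of Uqcrb in 11 of 18 (0.0611 to 0.149 in the others). Both were lost without 129 replicates 1 or 2 or B6 replicates 1 or 3, Uqcrfs1 also without any 1 F1 library and Uqcrb also without B6 replicate 2. The excess of Uqcrb in F1 over the mid-parent value, 0.20 (limma adjusted p = 0.0419), was likewise lost in 7 fits, without F1 replicates 1 or 3, 129 replicates 1 or 2 or B6 replicates 1 or 3 and with no filter on low values (adjusted p of 0.0559 to 0.164). The 4 remaining small subunits, Uqcrq, Uqcrh, Uqcr10 and Uqcr11, had -0.11 to -0.16 and did not pass, except that Uqcr10 passed without B6 replicate 2 (limma adjusted p = 0.0438).

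Uqcrq, a small subunit of complex III, was the member of its complex with the largest excess of F1 over the mid-parent value. It had 832, 683 and 679 RPKM in F1, 544, 559 and 615 RPKM in 129 and 597, 635 and 617 RPKM in B6. All F1 libraries were above all parental ones, and replicate 1 stood highest among them. The excess over the mid-parent value was 0.30 (SE 0.07, limma adjusted p = 0.014). The rise over B6 was 0.24 (SE 0.08, limma adjusted p = 0.0474) and was lost in 10 of the 17 other fits, with adjusted p of 0.0504 to 0.138. Among them were the fits without any 1 parental library and the fit without F1 replicate 1 (0.124).

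Complex IV held the genes with the largest differences, and these were isoform genes. Cox7a1, the subunit 7a form of heart, muscle and brown fat, lies on chromosome 7 (mm9, 30969190 to 30971049, plus strand, 4 exons). It had 352, 351 and 314 RPKM in F1, 187, 210 and 222 RPKM in 129 and 187, 210 and 195 RPKM in B6. The parental ranges overlapped and all F1 libraries were above both. Cox7a1 rose in F1 by 0.75 over the mid-parent value (SE 0.06, limma adjusted p = 6.07e-05), which is 1.68-fold in RPKM + 1. It rose by 0.78 over B6 and by 0.72 over 129, while 129 minus B6 gave 0.06 (SE 0.07, limma adjusted p = 0.564).

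Its ubiquitous counterpart Cox7a2 (chromosome 9, 79603048 to 79607660, minus strand, 4 exons) followed another order. It had 351, 365 and 321 RPKM in F1, 272, 268 and 293 RPKM in 129 and 417, 350 and 437 RPKM in B6. Here 129 was below both other groups, and F1 overlapped the lowest B6 library. Cox7a2 fell in 129 against B6 by 0.53 (SE 0.08, limma adjusted p = 0.000561). Against B6, F1 had -0.21 (limma adjusted p = 0.079), which passed as a fall of 0.30 without B6 replicate 2 (adjusted p = 0.00585). This difference also passed as a fall with limma-voom (adjusted p = 0.0474) and with array weights (0.0112). F1 minus mid-parent gave 0.05 (limma adjusted p = 0.633). The rise of F1 over 129 was 0.32 (limma adjusted p = 0.0172) and was lost without 129 replicate 1 (adjusted p = 0.0617), 129 replicate 2 (0.062), F1 replicate 1 (0.0525) or F1 replicate 2 (0.0612).

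The share of Cox7a1 in the summed RPKM of Cox7a1 and Cox7a2 separated all 3 groups. It was 50.03%, 49.1% and 49.4% in F1, 40.7%, 43.9% and 43.1% in 129 and 31.0%, 37.5% and 30.9% in B6. No group overlapped another, and B6 replicate 2 stood above its own group by more than the F1 or 129 spread. The mean shares were 49.5% ± 0.495 in F1, 42.6% ± 1.65 in 129 and 33.1% ± 3.76 in B6 (SD, n = 3 each). An exact permutation test of the log2 ratio over the 3 groups on the F statistic, which has no direction, gave p = 0.00357, the smallest that its 1680 arrangements allow, and 0.0143 after Benjamini-Hochberg adjustment over the 8 isoform pairs tested. The log2 ratio was 0.99 higher in F1 than in B6, 0.40 higher in F1 than in 129 and 0.59 higher in 129 than in B6, each with an exact two-sided permutation p of 0.1, the smallest that 3 against 3 libraries allow.

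Cox8b, the subunit 8 form of heart, muscle and brown fat (chromosome 7, 148084841 to 148086345, minus strand, 2 exons), had 48.7, 42.8 and 44.5 RPKM in F1, 21.1, 22.3 and 19.9 RPKM in 129 and 40.3, 40.5 and 38.1 RPKM in B6. The 3 groups did not overlap, with F1 just above B6 and 129 far below both. F1 exceeded the mid-parent value by 0.63 (SE 0.05, limma adjusted p = 3.82e-05) and 129 by 1.07 (SE 0.06, adjusted p = 9.41e-07). The log2 fold change for 129 minus B6 was -0.88 (SE 0.06, limma adjusted p = 9.14e-07), the largest fall of the 47 genes. Against B6, F1 was higher by 0.19 (limma adjusted p = 0.0287), a call lost without B6 replicate 1 (adjusted p = 0.0585), B6 replicate 3 (0.0937), F1 replicate 1 (0.0905) or F1 replicate 3 (0.0531), or with no filter on low values (0.0501).

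Cox8a, the ubiquitous subunit 8 (chromosome 19, 7289648 to 7292106, minus strand, 2 exons), had 1102, 1211 and 1040 RPKM in F1, 850, 1059 and 1093 RPKM in 129 and 958, 867 and 1138 RPKM in B6. Its groups overlapped, and it passed in none of the 4 contrasts. Cox8b thus made up 3.92% ± 0.439 of the summed RPKM of the pair in F1, 2.09% ± 0.318 in 129 and 3.91% ± 0.620 in B6. The 129 shares, 2.42%, 2.06% and 1.79%, lay below those of F1 (4.23%, 3.42% and 4.10%) and of B6 (4.03%, 4.46% and 3.24%), which overlapped each other. The log2 ratio was 0.90 higher in F1 than in 129, 0.01 higher in F1 than in B6 and 0.90 lower in 129 than in B6. The exact permutation test over the 3 groups gave p = 0.0357 and 0.0571 after adjustment over the 8 pairs, and this became 0.0286 without B6 replicate 2 and 0.0429 without B6 replicate 3. The brown fat forms of subunits 7a and 8 thus differed in strain order: 129 overlapped B6 for Cox7a1 and stood at 0.543 of it, in RPKM + 1, for Cox8b.

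**Figure D3:**
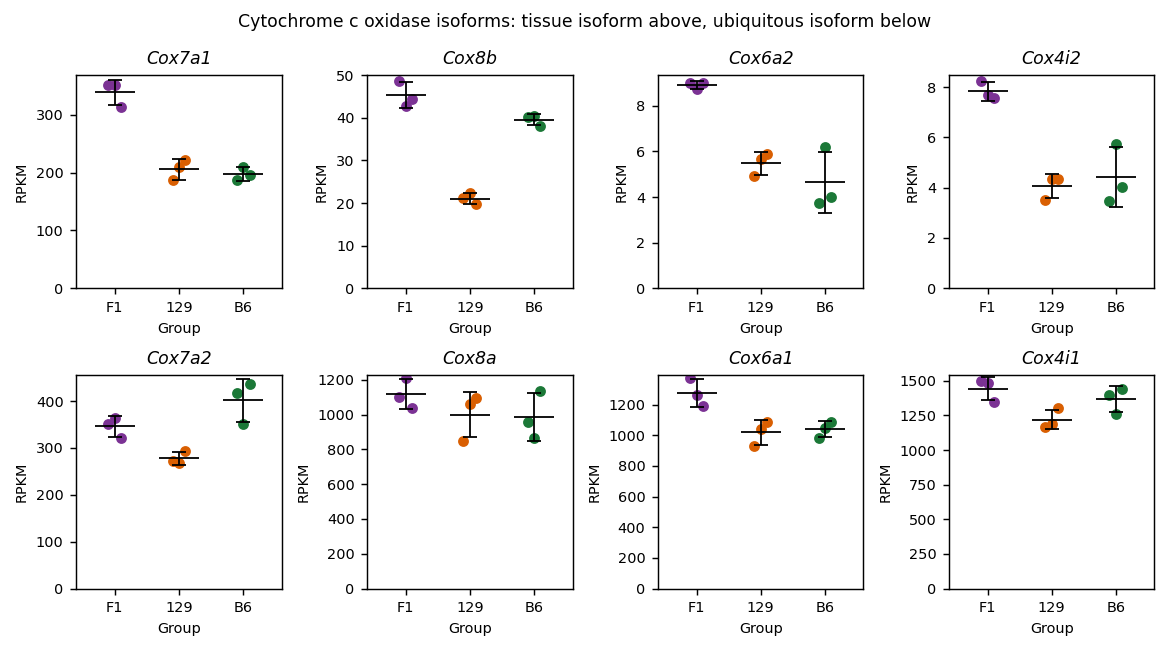
RPKM of 4 oxidase tissue isoforms (upper row) and their ubiquitous counterparts (lower row) in F1, 129 and B6, on linear axes that start at 0. Points are libraries, long bars are group means and short bars are 1 SD of 3 libraries. Cox7a1, Cox6a2 and Cox4i2 are highest in F1 with the parents overlapping, and Cox8b is lowest in 129.

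**Figure D4:**
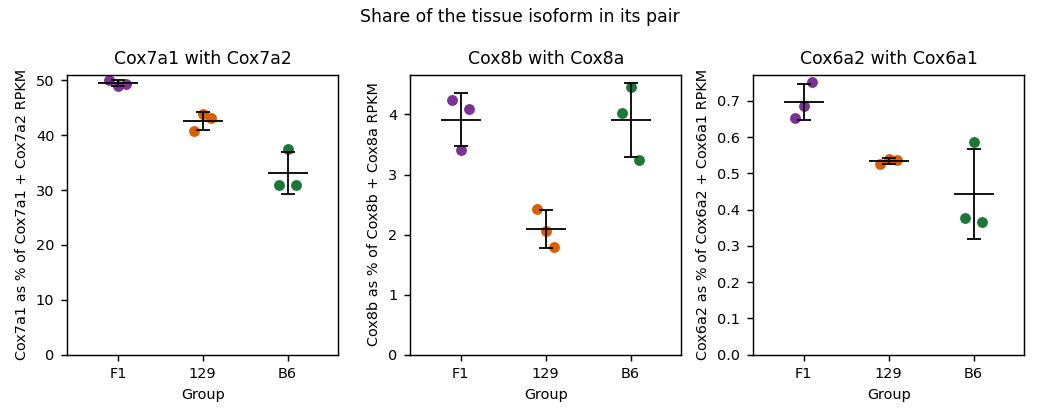
Share of the tissue isoform in the summed RPKM of its pair (vertical axes, percent, from 0) in F1, 129 and B6, with points for libraries, long bars for means and short bars for 1 SD of 3 libraries. The Cox7a1 share steps down through F1, 129 and B6 without overlap, and the Cox8b share is lowest in 129.

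The windows around the start sites of these 4 genes are shown because each pair encodes the same subunit with unlike levels among the groups. Cox7a1 and Cox7a2 had different orders, while Cox8b separated the groups and Cox8a overlapped in all of them. They run from 250 bases before to 50 after the start that RefSeq annotates on GRCm38.p6, a C57BL/6J genome, and so carry no 129 sequence. Capitals mark matches, on either strand, to CCAAT, the core read by the factor NF-Y, or to TATAAA, the TATA box core, the second of which was added to the search after the Cox8b window was seen.
Cox7a1: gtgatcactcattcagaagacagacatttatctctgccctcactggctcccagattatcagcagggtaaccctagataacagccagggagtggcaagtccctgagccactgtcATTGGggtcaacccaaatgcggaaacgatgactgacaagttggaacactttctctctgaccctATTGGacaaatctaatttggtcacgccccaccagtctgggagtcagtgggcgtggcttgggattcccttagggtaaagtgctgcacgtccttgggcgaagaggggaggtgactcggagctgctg
Cox7a2: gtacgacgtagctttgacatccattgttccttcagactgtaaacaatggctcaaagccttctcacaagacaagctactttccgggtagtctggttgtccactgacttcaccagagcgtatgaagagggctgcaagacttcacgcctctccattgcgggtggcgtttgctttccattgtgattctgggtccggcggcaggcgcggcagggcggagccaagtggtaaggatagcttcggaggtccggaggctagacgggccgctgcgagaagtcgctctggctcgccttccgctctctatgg
Cox8b: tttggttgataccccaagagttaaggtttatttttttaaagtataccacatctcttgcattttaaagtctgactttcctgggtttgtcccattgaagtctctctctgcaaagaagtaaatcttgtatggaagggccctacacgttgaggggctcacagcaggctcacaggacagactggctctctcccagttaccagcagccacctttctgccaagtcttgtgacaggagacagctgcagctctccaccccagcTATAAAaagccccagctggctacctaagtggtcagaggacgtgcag
Cox8a: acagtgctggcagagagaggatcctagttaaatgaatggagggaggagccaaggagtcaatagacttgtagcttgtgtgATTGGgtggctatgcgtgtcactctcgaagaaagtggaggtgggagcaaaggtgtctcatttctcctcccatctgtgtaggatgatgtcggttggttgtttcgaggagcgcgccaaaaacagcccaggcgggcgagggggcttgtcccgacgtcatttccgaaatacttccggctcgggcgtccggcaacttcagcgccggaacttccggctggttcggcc
They lie at chr7:30183921-30184220 on the plus strand for Cox7a1, and on the minus strand at chr9:79759804-79760103 for Cox7a2, chr7:140900397-140900696 for Cox8b and chr19:7217567-7217866 for Cox8a.

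Cox7a1 had 2 CCAAT matches, which begin 137 and 74 bases before the start, Cox8a had 1, beginning 171 bases before it, and the letters were not found in the Cox7a2 and Cox8b windows. A TATAAA match begins at base 5 after the annotated start of Cox8b. Windows were matched for 38 of the 49 genes, and not for Sdhc, Uqcrc2, Cyc1, Uqcrb, Uqcrq, Cox4i1, Cox4i2, Cox6a2, Cox6c, Cox8c and Atp5a1. CCAAT was present in 22 of the 38 (57.9%), against 41.1% of 27025 genes with windows of the same kind, and TATAAA in 3 (7.89%), against 15.7%. The palindromic core site of NRF1, a known regulator of respiratory genes, was in 4 (10.5%, against 1.07%), in the windows of Uqcrc1, Cox6a1, Atp5g2 and Atp5k. The site TCAAGGTCA of the ERR receptors was in 2 (5.26%, against 0.466%), Sdhd and Atp5g3. The spaced NFI palindrome and the PPAR direct repeat were in 0 of the 38, against 0.0444% and 0.0481% of all genes. All motifs were searched on both strands without mismatch, and the ERR site and the PPAR repeat share AGGTCA, as CCAAT and the NFI palindrome share CCAA.

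The remaining oxidase isoform pairs had a tissue form at a low level beside an abundant ubiquitous one. Cox6a2, the heart and muscle form of subunit 6a, had 9.02, 8.72 and 9.0 RPKM in F1, 4.91, 5.65 and 5.89 RPKM in 129 and 3.73, 6.19 and 4.0 RPKM in B6. Cox4i2, the subunit 4 form of lung that is known to respond to low oxygen, had 8.25, 7.67 and 7.56 RPKM in F1, 3.53, 4.35 and 4.35 RPKM in 129 and 3.48, 5.75 and 4.03 RPKM in B6. Both stood higher in every F1 library than in any parental one, and in both B6 replicate 2 was the highest of its group by a wide gap. Cox6a2 exceeded the mid-parent value by 0.73 (SE 0.11, limma adjusted p = 0.00141) and Cox4i2 by 0.76 (SE 0.11, adjusted p = 0.000944), and both rises passed in every fit run. For 129 minus B6, Cox6a2 had 0.22 (limma adjusted p = 0.206) and Cox4i2 had -0.08 (0.665). The Cox6a2 difference passed as a rise of 0.41 without B6 replicate 2 (adjusted p = 0.000958) and of 0.39 with array weights (0.00633). Cox6a2 rests on 236 to 307 recovered reads a library in F1, 77 to 106 in 129 and 63 to 78 in B6, and its exons overlap Itgad on the opposite strand. Cox6a2 and Cox7a1 are both muscle forms, so skeletal muscle markers are given beside them. Of 11 such markers, 9 were under 1 RPKM in every library, among them Ckm and Myh4, which were at 0 throughout. The others were Actn3, at 0.75 to 1.37 RPKM, and Acta1, at 1.30 to 2.88 RPKM. Acta1 had 1.59, 2.63 and 1.30 RPKM in B6, so that replicate 2 was highest there too. The 11 summed to 4.45 to 4.69 RPKM in F1, 4.63 to 5.38 in 129 and 3.21 to 4.83 in B6.

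The ubiquitous forms of these subunits differed less. Cox6a1 had 1372, 1261 and 1190 RPKM in F1, 930, 1043 and 1088 RPKM in 129 and 985, 1048 and 1089 RPKM in B6. F1 lay above both parents, which overlapped, and exceeded the mid-parent value by 0.31 (SE 0.07, limma adjusted p = 0.00912). Its rise over B6, 0.29 (limma adjusted p = 0.0175), was lost without B6 replicate 1 (adjusted p = 0.0735) or F1 replicate 1 (0.0571) or with no filter on low values (0.0607), and its rise over 129, 0.32 (adjusted p = 0.0124), without 129 replicate 1 (0.0579). Cox4i1 had 1498, 1482 and 1349 RPKM in F1, 1170, 1189 and 1302 RPKM in 129 and 1400, 1262 and 1444 RPKM in B6. F1 was above 129 without overlap and both overlapped B6. The rise of F1 over 129 was 0.24 (limma adjusted p = 0.036) and passed in 11 of 18 fits, losing the call without 129 replicate 1 (adjusted p = 0.13), 129 replicate 2 (0.113), F1 replicate 1 (0.099), F1 replicate 2 (0.102) or B6 replicate 1 (0.0527). For 129 minus B6 it had -0.16 (limma adjusted p = 0.112), which passed as a fall without B6 replicate 2 (adjusted p = 0.0321) and with array weights (0.0309). The Cox6a2 share of its pair was 0.697% ± 0.0496 in F1, 0.534% ± 0.00761 in 129 and 0.443% ± 0.125 in B6, and the Cox4i2 share was 0.540% ± 0.0220, 0.333% ± 0.0319 and 0.327% ± 0.111 in these groups. The exact permutation tests over the 3 groups gave adjusted p of 0.0571 and 0.0667, and without B6 replicate 2 both became 0.00714.

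Cox6b2, the testis form of subunit 6b, was detected in these cells. It had 15.1, 9.77 and 10.1 RPKM in F1, 7.56, 7.63 and 8.34 RPKM in 129 and 12.2, 12.7 and 10.8 RPKM in B6. All 129 libraries were the lowest, and F1 overlapped B6 with its first replicate the highest of all 9. Cox6b2 fell in 129 against B6 by 0.54 (SE 0.13, limma adjusted p = 0.00707). F1 minus B6 was -0.05 (limma adjusted p = 0.798) and passed as a fall without F1 replicate 1 (adjusted p = 0.0331). The rise of F1 over 129 was 0.49 (limma adjusted p = 0.0167), lost without 129 replicate 1 (adjusted p = 0.0588) or 129 replicate 2 (0.0526). Its counterpart Cox6b1 had 1279, 1239 and 1186 RPKM in F1, 1052, 1040 and 1181 RPKM in 129 and 1196, 1131 and 1290 RPKM in B6, and passed in none of the 4 contrasts. Cox6b2 was 0.931% ± 0.204 of its pair in F1, 0.714% ± 0.0133 in 129 and 0.984% ± 0.141 in B6 (exact permutation test over the 3 groups, adjusted p = 0.098). Cox6b1 lies 431 kb from Cox7a1 on chromosome 7, and its F1 minus mid-parent value was 0.11 (limma adjusted p = 0.243) against 0.75 for Cox7a1.

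The other oxidase subunits were Cox5a, Cox5b, Cox6c, Cox7b and Cox7c, of which Cox7b has the testis form Cox7b2, listed at 0. Cox7b, encoded on the X chromosome (103211039 to 103217789), had 428, 381 and 381 RPKM in F1, 322, 314 and 349 RPKM in 129 and 371, 360 and 377 RPKM in B6. The 3 groups did not overlap, with F1 highest and 129 lowest. Cox7b fell in 129 against B6 by 0.17 (SE 0.06, limma adjusted p = 0.0478) and exceeded the mid-parent value in F1 by 0.19 (SE 0.05, adjusted p = 0.0276). The fall was lost in 9 of the 17 other fits (limma adjusted p of 0.0525 to 0.162), among them those without 129 replicates 1 or 2, B6 replicates 1 or 3, or F1 replicates 2 or 3. The mid-parent call was lost in 5, without any 1 of F1 replicate 1, 129 replicates 1 and 2 and B6 replicate 1, and with no filter on low values (adjusted p of 0.0536 to 0.107). Cox5b, which sits on the matrix side of the oxidase, had 947, 745 and 770 RPKM in F1, 583, 648 and 689 RPKM in 129 and 703, 721 and 727 RPKM in B6. Its order among the groups was the same, with replicate 1 far above the other F1 libraries. It exceeded the mid-parent value by 0.27 (SE 0.08, limma adjusted p = 0.0334), and this call was lost in 7 of the 17 other fits (adjusted p of 0.0509 to 0.119). These were the fits without F1 replicates 1 or 3, 129 replicates 1 or 2 or B6 replicate 1, with a replicate block and with no filter on low values. For 129 minus B6, Cox5a had -0.23 (limma adjusted p = 0.0554), Cox6c -0.24 (0.0516) and Cox7c -0.07 (0.65), and none of the 3 passed. Without B6 replicate 2 all 3 passed as falls (adjusted p = 0.00909 for Cox5a, 0.0051 for Cox6c and 0.0285 for Cox7c), and so did Cox5a without 129 replicate 3 (0.0443) and Cox6c without F1 replicate 3 (0.049). Cox5a and Cox6c also passed as falls with limma-voom (0.0304 and 0.0256) and with array weights (0.0161 and 0.00791). They did so too when genes with a mean RPKM of at least 5 were tested (0.0489 and 0.0449). Cox5a rose in F1 over 129 by 0.31 (limma adjusted p = 0.0238), which was lost without F1 replicates 1 or 2, without 129 replicates 1 or 2 and with no filter on low values (adjusted p of 0.0584 to 0.0959).

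Cox7a2l, a relative of subunit 7a that links complexes III and IV into supercomplexes, is known as SCAF1 and for a shorter protein in C57BL/6 mice. It is treated here as a related gene and not as a subunit gene, but the complex IV counts given here include it. It had 188, 187 and 180 RPKM in F1, 164, 162 and 168 RPKM in 129 and 178, 169 and 182 RPKM in B6. The 129 libraries were lowest and F1 overlapped B6, within a narrow range throughout. The 129 minus B6 difference was -0.10 (SE 0.04, limma adjusted p = 0.105), which passed without B6 replicate 2 (adjusted p = 0.0352) and with array weights (0.0241). F1 exceeded 129 by 0.17 (SE 0.04, limma adjusted p = 0.0164), which was lost without 129 replicate 1 (adjusted p = 0.0548), 129 replicate 2 (0.0613) or F1 replicate 2 (0.0503). F1 exceeded the mid-parent value by 0.12 (limma adjusted p = 0.0448), which passed in 10 of 18 fits and otherwise had an adjusted p of 0.0632 to 0.127. The call was lost on leaving out any 1 library other than B6 replicates 2 and 3. Set against Cox7a2, it was 34.9% ± 1.06 of the pair in F1, 37.3% ± 0.685 in 129 and 30.6% ± 1.67 in B6, with no overlap between groups (exact permutation test over the 3 groups, adjusted p = 0.0143). The log2 fold change for 129 minus B6 was -0.53 for Cox7a2 beside -0.10 for Cox7a2l.

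Of the 17 genes under complex V, 10 fell in 129 against B6 and 1 exceeded the mid-parent value in F1. The 10 include Atp5s and Atp5sl, which encode no subunit. The 1 is Atp5sl, so this count holds no ATP synthase subunit gene. Under other settings Atp5g1 passed as a fall against the mid-parent value, as given below. Atp5b had 0.16 over the mid-parent value (limma adjusted p = 0.0776). It passed as a rise with limma-voom (adjusted p = 0.0233) and after median-of-ratios rescaling (0.042). In the head and central stalk, Atp5b, Atp5c1, Atp5d and Atp5e fell in 129 against B6, at -0.17 to -0.28. They encode the beta, gamma, delta and epsilon subunits. Atp5a1, the alpha subunit, had -0.16 and did not pass (limma adjusted p = 0.0614). The 4 falls passed in 12, 10, 9 and 11 of 18 fits, in that order. All 4 were lost without 129 replicates 1 or 2 or B6 replicates 1 or 3, after median-of-ratios rescaling and with no filter on low values, and Atp5c1 and Atp5d also without F1 replicate 2. The adjusted p in the fits that lost them was 0.0502 to 0.184. Atp5a1 passed as a fall without B6 replicate 2 (adjusted p = 0.00883), with limma-voom (0.0338) and with array weights (0.00899). In the peripheral stalk Atp5f1, Atp5h and Atp5j fell, at -0.19 to -0.25, and Atp5o had -0.19 with an adjusted p of 0.062. The fall of Atp5j passed in every fit run, and that of Atp5f1 was lost without 129 replicate 2 (limma adjusted p = 0.0525). That of Atp5h passed in 10 of 18 fits and was lost without any 1 of the 129 libraries, B6 replicates 1 and 3 and F1 replicate 2, after rescaling and with no filter on low values (adjusted p of 0.0501 to 0.132). Atp5o passed as a fall without F1 replicate 1 (adjusted p = 0.0131), with only the 6 libraries compared (0.021), with limma-voom (0.0325) and with array weights (0.0211). The membrane subunits Atp5k, Atp5j2 and Atp5l had -0.06 to -0.18 and did not pass, except that Atp5l passed without F1 replicate 1 (adjusted p = 0.0364) and with array weights (0.0165). Exons of Atp5f1 overlap Wdr77, those of Atp5j overlap Gabpa and those of Uqcrc2 overlap Pdzd9, each on the opposite strand, and whether reads were counted by strand is not given in the sources used here.

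The rotor ring of complex V is made of subunit c, which 3 genes encode with the same mature protein. Atp5g1 had 205, 164 and 165 RPKM in F1, 166, 172 and 179 RPKM in 129 and 228, 205 and 221 RPKM in B6. F1 replicate 1 reached the lowest B6 library, and the other F1 libraries lay with 129, below B6. Atp5g1 fell in 129 against B6 by 0.33 (SE 0.08, limma adjusted p = 0.00852), in every fit run. It also fell in F1 against B6, by 0.29 (SE 0.08, limma adjusted p = 0.0207), a call lost without B6 replicate 1 (adjusted p = 0.0749), B6 replicate 3 (0.0565), F1 replicate 2 (0.0774) or F1 replicate 3 (0.0764). F1 minus 129 was 0.04 (limma adjusted p = 0.748). F1 minus mid-parent was -0.13 (limma adjusted p = 0.233), which passed as a fall of 0.23 without F1 replicate 1 (adjusted p = 0.016) and of 0.21 with array weights (0.0174).

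Atp5g2 had 256, 265 and 242 RPKM in F1, 243, 256 and 269 RPKM in 129 and 257, 233 and 273 RPKM in B6, with all groups overlapping and a log2 fold change of 0.01 for 129 minus B6 (limma adjusted p = 0.904). Atp5g3, the most abundant of the 3, had 883, 852 and 774 RPKM in F1, 775, 818 and 876 RPKM in 129 and 962, 859 and 1005 RPKM in B6, and passed in no contrast. Without B6 replicate 2 it fell against B6 in 129 (limma adjusted p = 0.0191) and in F1 (0.0333). With array weights it also fell in 129 (adjusted p = 0.0176) and in F1 (0.0209), and with limma-voom in 129 (0.0405). Atp5g3 gave 65.5% to 66.5% of the summed RPKM of the 3 genes in F1, 65.5% to 66.1% in 129 and 66.3% to 67.1% in B6. Atp5g1 gave 12.8% to 15.3% in F1, 13.5% to 14.0% in 129 and 14.7% to 15.8% in B6, and Atp5g2 gave 19.1% to 20.7%, 20.3% to 20.5% and 17.8% to 18.2% in these groups. The Atp5g2 share was lowest in B6, without overlap with F1 or 129. The exact permutation tests over the 3 groups gave adjusted p of 0.182 for Atp5g1 against Atp5g3 and 0.0571 for Atp5g2 against Atp5g3.

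Both genes whose symbols carry Atp5 without encoding a subunit were also lower in 129. Atp5s, now Dmac2l, had 5.23, 5.46 and 4.64 RPKM in F1, 4.56, 4.42 and 4.06 RPKM in 129 and 5.59, 5.67 and 5.75 RPKM in B6. B6 lay above both other groups, and 129 was lowest. It fell in 129 against B6 by 0.32 (SE 0.06, limma adjusted p = 0.00163). F1 exceeded 129 by 0.19 (limma adjusted p = 0.036), which passed in 11 of 18 fits and was lost without 129 replicate 2 (adjusted p = 0.0692), 129 replicate 3 (0.126), F1 replicate 1 (0.0975) or F1 replicate 2 (0.125). Atp5sl, now Dmac2, had 13.3, 12.5 and 12.1 RPKM in F1, 10.0, 9.62 and 9.85 RPKM in 129 and 11.5, 12.1 and 11.7 RPKM in B6. Its 129 libraries were lowest, and F1 overlapped B6 at the upper end. It fell in 129 against B6 by 0.23 (SE 0.05, limma adjusted p = 0.00213) and exceeded the mid-parent value in F1 by 0.21 (SE 0.04, adjusted p = 0.0038).

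Within each group the members moved as a block between libraries. Of the 47 genes, 36 were highest in F1 replicate 1 and 36 lowest in F1 replicate 3, 44 were highest in 129 replicate 3, and 36 were lowest in B6 replicate 2 with 36 highest in B6 replicate 3. The median log2 deviation of the members from their group mean was 0.06, 0.00 and -0.08 in the F1 replicates, -0.05, -0.02 and 0.08 in those of 129 and 0.02, -0.09 and 0.08 in those of B6. The spread of these medians within a group is of the size of many single differences given above, and the 47 genes are therefore not 47 separate observations of a strain difference. Against it, 7 genes ran the other way in B6, with replicate 2 highest in each: Uqcrq, Cox4i2, Cox6a2, Cox6b2, Cox7a1, Cox8b and Atp5sl. Genes with processed copies elsewhere in the genome are less certain, since reads could be shared: 7 members have pseudogenes named in RefSeq, Uqcrh, Cycs, Cox5b, Cox7c, Atp5c1, Atp5k and Atp5l.

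Genes that work with these complexes were counted in the same way. Of 36 tested genes with the symbols of complex I subunits, 9 were lower and 0 higher in 129 than in B6 (25.0% lower, against 21.7% of all genes tested, and 0 against 15.9% higher), with a median of -0.14 (12 lower and 1 higher at an unadjusted p under 0.05, and 11 and 1 by limma-voom). F1 minus mid-parent had 14 higher and 0 lower (38.9% higher, against 8.35% of all genes), with a median of 0.14 (18 and 0 at an unadjusted p under 0.05, and 17 and 0 by limma-voom). The symbols take in Ndufa4, which is associated with the oxidase, and its relative Ndufa4l2, and without these, left out after the values were seen, 8 of 34 were lower in 129 and 13 higher in F1. Of 33 assembly factors of complexes II to V, 10 were lower and 2 higher in 129 (30.3% and 6.06%, against 21.7% and 15.9% of all genes), and 3 rose in F1 over the mid-parent value (9.09%, against 8.35%) with 0 that fell (5 and 0 at an unadjusted p under 0.05, and 3 and 0 by limma-voom). The largest fall among them was that of Lyrm7, which stabilises the Rieske protein, with 3.54, 3.28 and 3.18 RPKM in F1, 1.52, 1.5 and 1.72 RPKM in 129 and 4.17, 4.70 and 3.90 RPKM in B6, a log2 fold change of -1.02 for 129 minus B6 (SE 0.07, limma adjusted p = 1.08e-06). The 2 that rose in 129 were Cox18, which inserts a mitochondrially encoded oxidase subunit into the membrane (0.80), and Coa4 (0.63). Lyrm7, Cox18 and Coa4 were picked for their values. Atpif1, the inhibitor of ATP synthase, had 82.6, 78.8 and 76.2 RPKM in F1, 81.9, 81.0 and 85.5 RPKM in 129 and 78.3, 83.8 and 82.6 RPKM in B6, and its groups overlapped with a 129 minus B6 difference of 0.02 (limma adjusted p = 0.739). Among 10 tested genes of a thermogenic list, which includes Cox7a1 and Cox8b, 5 were lower and 2 higher in 129 than in B6 (against 21.7% lower and 15.9% higher among all genes tested), with Ucp1 among the higher.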

How the data were processed

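The authors sequenced poly(A) RNA with a stranded kit, per the labels' protocols, and aligned it with STAR to mm9, per the submitters' processing notes. The counting program, its use of strand, the annotation and the filters are not stated there. The authors deposited RPKM, 1 value per gene and library. Low values were whole multiples of 1 read, so reads were recovered, and 100% of the values above 0 came out whole within 0.1 read. The deposited text held 5 unnamed columns with cells in 31 of 24015 rows, which were not used.

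Unless another setting is named, fits used log2(RPKM + 1), a scale that understates the changes of genes at low levels. The 11542 genes with at least 1 RPKM in at least 3 of 9 libraries were fitted with limma 3.58.1 (R 4.3.3, mean-variance trend, 1 mean per group). P-values were two-sided, with Benjamini-Hochberg adjustment over these genes and a threshold of 0.05. A fold change is therefore one of RPKM + 1. The procedures were tried on simulated data in which genes varied independently of each other. Members that move together between libraries were therefore not covered. Pair ratios were tested by exact permutation over libraries. Genes given with every library's value were both isoforms of each tested pair and the members treated as related genes. They were also the largest falls of 129 minus B6 and the largest F1 minus mid-parent changes in each complex. The members and the gene lists were chosen with earlier results of these data known. Coordinates are of mm9 unless GRCm38.p6 is named.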

Additional observations from a re-analysis of the deposited data

How the results depend on the processing

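No log2 fold change called for a member changed sign under any alternative, but the balance of calls in F1 minus B6, 6 higher and 2 lower, became 5 higher and 6 lower without B6 replicate 2. The number of members passing in 129 minus B6, 23, became 15 with no filter on low values and 15 after median-of-ratios rescaling, and the 8 of F1 minus B6 became 4 with no filter. Rescaling moved the median of all genes by 0.01 to 0.04 on the log2 scale. On leaving out 1 library, 12 to 32 members passed between 129 and B6. The F1 counts were 3 to 11 against B6, 13 to 31 against 129 and 8 to 12 against the mid-parent value. It gave spans of the group means of the log2 ratio of 0.91 to 1.13 for Cox7a1 over Cox7a2, 0.80 to 1.03 for Cox8b over Cox8a, 0.44 to 0.73 for Cox6a2 over Cox6a1, 0.56 to 0.87 for Cox4i2 over Cox4i1, 0.31 to 0.51 for Cox6b2 over Cox6b1, 0.12 to 0.19 for Atp5g1 over Atp5g3, 0.20 to 0.21 for Atp5g2 over Atp5g3 and 0.39 to 0.49 for Cox7a2l over Cox7a2. With a pseudocount of 0.1 the pairs Cox6a2 over Cox6a1 (span 0.67) and Atp5g2 over Atp5g3 (span 0.20) passed in the exact permutation test, with an adjusted p of 0.0429 each. The cause of these changes was not tested.

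Same-numbered libraries of different groups had deviations that correlated at -0.19 to 0.22 across genes, and differently numbered ones at -0.20 to 0.23. What the replicate numbers stand for is not stated, and these correlations cannot show whether same-numbered libraries were prepared together. With a replicate block 20 members passed between 129 and B6. In F1 the block left 7 against B6, 25 against 129 and 10 against the mid-parent value. The exact permutation test within replicate numbers has 216 arrangements and a smallest p of 0.0278, so that none of the 8 pairs passed under this block. The Cox7a1 over Cox7a2 span of 0.99 and the Cox7a2l over Cox7a2 span of 0.43 then had an adjusted p of 0.111. Array weights gave 32 lower and 1 higher members in 129 minus B6. The lowest depth was 19130022 reads. Cox6a2 rests on 63 to 307 reads a library and Cox4i2 on 61 to 298, which limits the precision of their levels.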

Other observations

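Ndufc2, an accessory subunit of complex I and so outside the rule, had 263, 224 and 219 RPKM in F1, 156, 162 and 172 RPKM in 129 and 249, 260 and 254 RPKM in B6, and its 129 libraries were below all others. It fell in 129 against B6 by 0.63 on the log2 scale (SE 0.07, limma adjusted p = 4.1e-05). Ndufa4l2, a relative of the oxidase-associated Ndufa4 that is known to be induced by low oxygen, had 150, 133 and 131 RPKM in F1, 72.7, 88.9 and 74.0 RPKM in 129 and 65.0, 115 and 54.0 RPKM in B6. All F1 libraries were above all parental ones, and B6 replicate 2 stood highest among the parents, as it did for Cox4i2. Ndufa4l2 exceeded the mid-parent value in F1 by 0.85 (SE 0.19, limma adjusted p = 0.0085). Cox14, an oxidase assembly factor, had 94.1, 87.8 and 80.5 RPKM in F1, 62.1, 74.3 and 77.5 RPKM in 129 and 104, 94.0 and 104 RPKM in B6, a fall in 129 against B6 of 0.50 (SE 0.08, limma adjusted p = 0.00095). These 3 genes were picked for their values.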
